A study of Homo sapiens with 12 samples.

Results

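CD24, CD44, PROM1, ALDH1A1, ALDH1A3 and BMI1 are genes whose products are widely used to mark stem-like cells of carcinomas. Their transcripts were followed in 3 established lines of head and neck squamous cell carcinoma (HNSCC), SCC1, SCC6 and SCC25, the first 2 short for UM-SCC-1 and UM-SCC-6. The 6 genes were taken by symbol from the count tables of the series, which hold 33514 gene symbols. Each line was treated daily with 100 nM cetuximab, a therapeutic antibody against the epidermal growth factor receptor, for 5 days, or with PBS as the untreated control kept in culture for the same time. Every group (SCC1 PBS, SCC1 cetuximab, SCC6 PBS, SCC6 cetuximab, SCC25 PBS and SCC25 cetuximab) had 2 replicates, 12 samples in all. The lines are cultured tumour cells without stroma or immune cells, and whether replicates were separate cultures or repeat libraries is not clear from the sources, so that every SD, SE and p-value measures the spread between these samples, which may be technical.

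CD24 is a small, heavily glycosylated protein tethered to the cell surface by a lipid anchor, and CD44 is the main surface receptor for hyaluronan, a sugar polymer of the extracellular matrix. PROM1 encodes the membrane protein CD133, ALDH1A1 and ALDH1A3 encode enzymes that oxidise retinaldehyde to retinoic acid, and BMI1 is a subunit of the polycomb repressive complex PRC1, which silences the cell-cycle inhibitor locus CDKN2A. High surface CD44 and high aldehyde dehydrogenase activity are the markers most used to enrich tumour-initiating cells from HNSCC, while low CD24 together with high CD44 is a convention from breast carcinoma. In the reference annotation (RefSeq, GRCh38.p14) CD24 lies on chromosome 6 (106969831 to 106976855), CD44 on chromosome 11 (35139171 to 35232402), PROM1 on chromosome 4 (15968228 to 16084023), ALDH1A1 on chromosome 9 (72900671 to 72953053), ALDH1A3 on chromosome 15 (100879831 to 100916626) and BMI1 on chromosome 10 (22321099 to 22331706).

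The samples held 961 to 2854 cells (23914 in all), 57057402 to 112170073 unique molecular identifiers (UMIs, each standing for 1 captured transcript) and a median of 24078.5 to 54864 UMIs per cell. Between 3 and 10 cell barcodes occurred in both replicates of a group, and 1 to 13 in samples of different groups. Of 10 marker genes of squamous carcinoma cells, 7 to 10 stood at 10 UMIs per 1000000 (CPM) or more in each sample, with a summed level of 7375 to 18370 CPM. For 6 leukocyte, 7 fibroblast and 5 endothelial genes the number was 0 to 2, 0 to 2 and 0, with summed levels of 3.41 to 193, 0.947 to 80.3 and 0.0292 to 0.738 CPM. Most of the leukocyte sum in SCC25 came from CD68, which stood at 163 and 188 CPM with PBS and 170 and 116 CPM with cetuximab.

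CD24 separated the untreated lines more than any other member. SCC1 PBS replicates 1 and 2 held 1.30 and 1.19 CPM, SCC6 PBS 389 and 265 CPM, and SCC25 PBS 588 and 591 CPM. The 3 lines did not overlap. On summed counts, CD24 was higher in SCC6 than in SCC1 by 8.39 ± 0.34 (SE) on the log2 scale and higher in SCC25 than in SCC1 by 9.09 ± 0.35 (edgeR FDR 6.0e-07 and 3.2e-07). The smaller step from SCC6 to SCC25, 0.70 ± 0.24, had an edgeR FDR of 0.0424, but it did not pass in 9 of the fits that left out 1 sample, and without SCC6 PBS replicate 2 it was 0.41 (FDR 0.236). CD24 has near-identical processed copies elsewhere in the genome, and how reads shared with them were counted is not stated, so its absolute level is uncertain.

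CD44 was also lowest in SCC1, but over a far narrower range. Its level was 48.4 and 83.9 CPM in SCC1 PBS, 145 and 146 CPM in SCC6 PBS and 183 and 248 CPM in SCC25 PBS. Both SCC1 samples lay below all SCC6 and SCC25 samples. The log2 difference from SCC1 was 1.46 ± 0.36 in SCC6 (edgeR FDR 0.00859) and 1.89 ± 0.36 in SCC25 (FDR 0.00228), while SCC25 and SCC6 differed by 0.43 ± 0.35 (FDR 0.361), within their spread. Without SCC1 PBS replicate 1 the SCC6 difference was 1.06 (FDR 0.0748). These 3′ counts do not tell the standard CD44 transcript from its splice variants.

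ALDH1A3 was the aldehyde dehydrogenase member with a clear level in every line. It stood at 22.4 and 25.8 CPM in SCC1 PBS, 176 and 117 CPM in SCC6 PBS and 68.9 and 84.3 CPM in SCC25 PBS. Its order therefore differed from that of CD24 and CD44, with SCC6 highest, and no samples of different lines overlapped. SCC6 exceeded SCC1 by 2.94 ± 0.27 and SCC25 exceeded SCC1 by 1.86 ± 0.26 on the log2 scale (edgeR FDR 2.1e-05 and 0.000359). SCC25 was lower than SCC6, with a difference of −1.08 ± 0.25 (FDR 0.00686), which was −0.70 without SCC6 PBS replicate 1 (FDR 0.0621) and −0.89 without SCC25 PBS replicate 1 (FDR 0.0534).

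BMI1 was nearly level among the lines, at 16.6 and 11.1 CPM in SCC1 PBS, 14.9 and 10.4 CPM in SCC6 PBS and 21.1 and 13.2 CPM in SCC25 PBS. The ranges of the 3 lines overlapped, and replicate 1 was above replicate 2 in each of the 6 groups. The largest of its differences between lines, SCC25 minus SCC1, was 0.50 ± 0.29 on the log2 scale (edgeR FDR 0.197). BMI1 overlaps the readthrough gene COMMD3-BMI1, to which 2 UMIs were assigned in the whole series, so reads that fit both genes may have been lost from its count.

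ALDH1A1 and PROM1 were at or near the floor. ALDH1A1 had 3 and 7 UMIs in SCC1 PBS, 0 and 5 in SCC1 cetuximab, 0 and 2 in SCC6 PBS and 0 and 0 in SCC6 cetuximab. In SCC25 it had 13 and 299 UMIs with PBS and 4 and 91 with cetuximab. Both high values belonged to replicate 2, where 197 of 2576 PBS cells and 68 of 2027 cetuximab cells held an ALDH1A1 UMI, with at most 7 in 1 cell. The edgeR test set SCC25 PBS above SCC1 PBS (FDR 0.0426) and above SCC6 PBS (FDR 0.0199), and neither passed without SCC25 PBS replicate 2 (FDR 0.530 and 0.189). The first also did not pass with DESeq2 (FDR 0.0675), nor without either PBS replicate of SCC1 (edgeR FDR 0.172 and 0.150) or of SCC6 (0.0572 and 0.0573), and the second not without either PBS replicate of SCC6 (0.117 and 0.0786). PROM1 had 12 UMIs in all 23914 cells, 11 of them in SCC25 and 1 in SCC1 PBS, with at most 1 per cell, and fell below the low-count filter.

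Counting these calls, 3 of the 5 members tested differed between untreated SCC6 and SCC1 (CD24, CD44 and ALDH1A3), where 40.2% of the 17897 genes tested did. For SCC25 against SCC1 it was 4 of 5, against 40.8% of all genes, and for SCC25 against SCC6 it was 3 of 5, against 40.9%. The PBS groups are shared between these 3 comparisons.

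**Figure D1:**
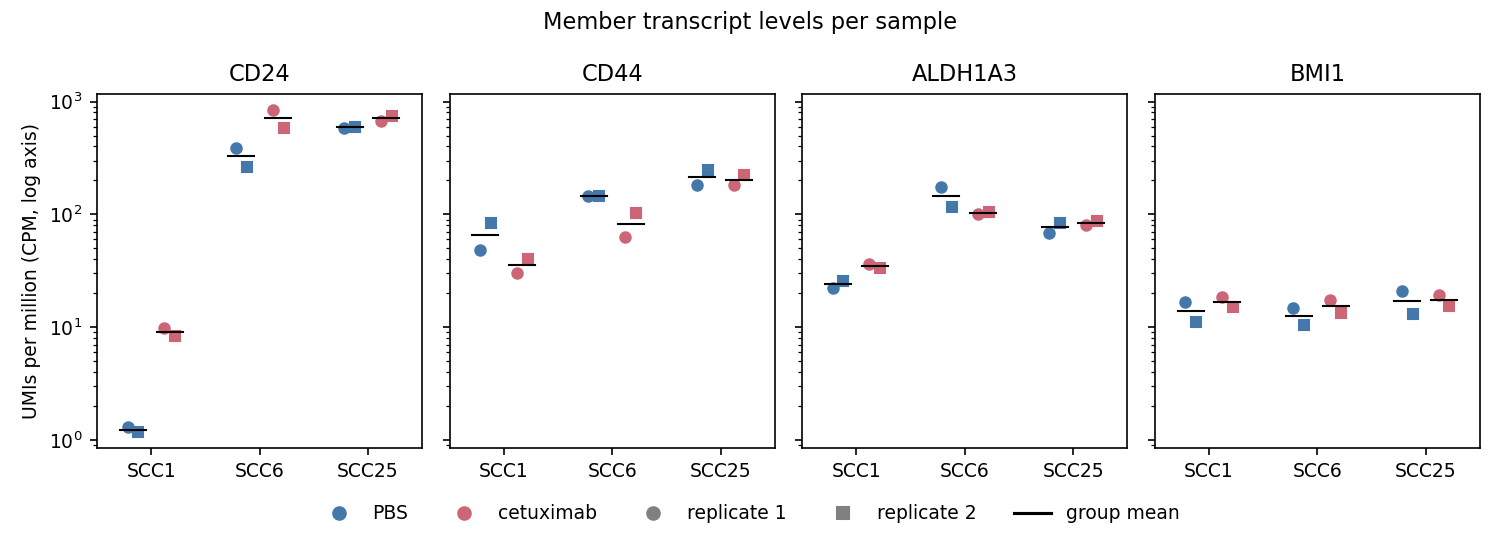
Level of CD24, CD44, ALDH1A3 and BMI1 in each of the 12 samples, in CPM on a logarithmic axis, by line, with PBS in blue, cetuximab in red, replicate 1 as circles, replicate 2 as squares and the group mean as a line. CD24 lies at 1.19 to 9.85 CPM in SCC1 and at 265 to 849 CPM in SCC6 and SCC25, while BMI1 stays between 10.4 and 21.1 CPM throughout.

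To ask which members respond to 5 days of cetuximab, the treated samples were set against PBS in each line. CD24 in SCC1 was the clearest response among the members. Its level rose from 1.30 and 1.19 CPM to 9.85 and 8.34 CPM, and both treated samples lay far above both controls, at 7.60 and 7.03 times the PBS sample with the same replicate number. The log2 change was 2.82 ± 0.27 (edgeR FDR 0.00761). Over all alternatives it ranged from 2.71 to 2.92, but the call was lost when only the 4 SCC1 samples were fitted (FDR 0.0760, where 0 of 15074 genes were called, 2054 had an unadjusted p under 0.05 and DESeq2 was not run) and without PBS replicate 1 (FDR 0.168), PBS replicate 2 (FDR 0.282) or cetuximab replicate 1 (FDR 0.0805).

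In SCC6, CD24 stood at 389 and 265 CPM with PBS and at 849 and 588 CPM with cetuximab. The groups did not overlap, and the pairs differed by 2.18 and 2.22 times in CPM, which are not scaled by the normalization factors of edgeR. The log2 change was 0.89 ± 0.25 (edgeR FDR 0.0752), short of the threshold, and with the replicate number as a block it was 0.91 ± 0.11 (FDR 0.00224). In SCC25, CD24 stood at 588 and 591 CPM with PBS and at 678 and 752 CPM with cetuximab, again without overlap, with a log2 change of 0.25 ± 0.24 (FDR 1, and 0.344 with the block).

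Across the lines the log2 change of CD24 was 1.25 ± 0.35 (edgeR FDR 0.0690, 0.0661 with the block and 0.00477 with DESeq2). The interaction of line and treatment, which asks whether the lines differed in it, had an unadjusted p of 7.4e-05 and an FDR of 0.189 without the block and an FDR of 0.00875 with it. In the blocked fit the log2 change in SCC6 minus the change in SCC1 was −1.91 (edgeR FDR 0.00625) and that in SCC25 minus the change in SCC1 was −2.57 (FDR 0.00397), while SCC25 and SCC6 did not differ past the threshold (FDR 0.101). These 3 differences share the changes of each line.

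CD44 was lower with cetuximab in SCC1 and SCC6. In SCC1 it went from 48.4 and 83.9 CPM to 30.3 and 40.4 CPM, and in SCC6 from 145 and 146 CPM to 62.5 and 103 CPM. Treated samples lay below both controls in each of these lines, by the smallest margin between PBS replicate 1 and cetuximab replicate 2 of SCC1. SCC6 cetuximab replicate 1, the sample with the lower CD44 level, was also the shallowest, with a median of 24078.5 UMIs per cell against 50156 in replicate 2, and the part of depth in this gap was not tested. The log2 change was −0.97 ± 0.35 in SCC1 (edgeR FDR 0.451) and −1.04 ± 0.35 in SCC6 (FDR 0.135), and with the replicate block it was −0.92 ± 0.21 (FDR 0.0482) and −1.09 ± 0.21 (FDR 0.0109). In SCC25, CD44 stood at 183 and 248 CPM with PBS and at 183 and 222 CPM with cetuximab, overlapping groups with a log2 change of −0.13 ± 0.35 (FDR 1, and 0.845 with the block). Across the lines the change was −0.71 ± 0.22 (edgeR FDR 0.0908), or −0.70 ± 0.19 with the block (FDR 0.0439), and the interaction did not pass (FDR 0.874, and 0.198 with the block).

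ALDH1A3 had estimates of opposite sign in SCC1 and SCC6. In SCC1 it stood at 22.4 and 25.8 CPM with PBS and at 36.6 and 33.5 CPM with cetuximab, in SCC6 at 176 and 117 CPM and at 102 and 105 CPM, and in SCC25 at 68.9 and 84.3 CPM and at 80.7 and 88.2 CPM. The groups did not overlap in SCC1 and SCC6 and overlapped in SCC25. The log2 change in SCC1 was 0.48 ± 0.25 (edgeR FDR 0.660). It was −0.74 ± 0.25 (FDR 0.134) for SCC6 and 0.10 ± 0.25 (FDR 1) for SCC25. With the block, the SCC6 value was −0.70 ± 0.20 (FDR 0.0394) and the other 2 lines did not pass. The interaction had an unadjusted p of 0.0168 and an FDR of 0.540, or 0.134 with the block.

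BMI1 stood at 18.5 and 15.04 CPM in SCC1 cetuximab, 17.6 and 13.4 CPM in SCC6 cetuximab and 19.4 and 15.4 CPM in SCC25 cetuximab. Each range overlapped that of PBS in the same line. The log2 change was 0.24 ± 0.29, 0.05 ± 0.29 and −0.00 ± 0.29 in SCC1, SCC6 and SCC25 (edgeR FDR 0.940, 0.959 and 1), and 0.10 ± 0.16 across lines (FDR 0.781).

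In all, edgeR called 1 of the 5 members tested in SCC1, where it called 0.0168% of all genes (3 of 17897), and 0 of 5 in SCC6, against 3.81%. In SCC25 it called 0 of 5 members and 0% of all genes, across lines 0 of 5 against 3.67%, and by the interaction 0 of 5 against 0%. Members with an unadjusted p under 0.05 numbered 3 in SCC6, 0 in SCC25, 2 across lines and 2 by the interaction, and DESeq2 called 1, 0, 2 and 1 in the same order. Over all 17897 genes, those with an unadjusted p under 0.05 numbered 3561, 1041, 3757 and 1318 in the same order. DESeq2 called 1671, 101, 1771 and 276 of them. With the replicate block the members called were 2 of 5 in SCC1 against 4.45% of all genes, 3 of 5 in SCC6 against 20.1%, 0 of 5 in SCC25 against 0.978%, 1 of 5 across lines against 11.6% and 1 of 5 by the interaction against 1.29%. In SCC25 with the block, 1 member had an unadjusted p under 0.05, ALDH1A1 (edgeR FDR 0.143), whose counts there came mostly from replicate 2.

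**Figure D2:**
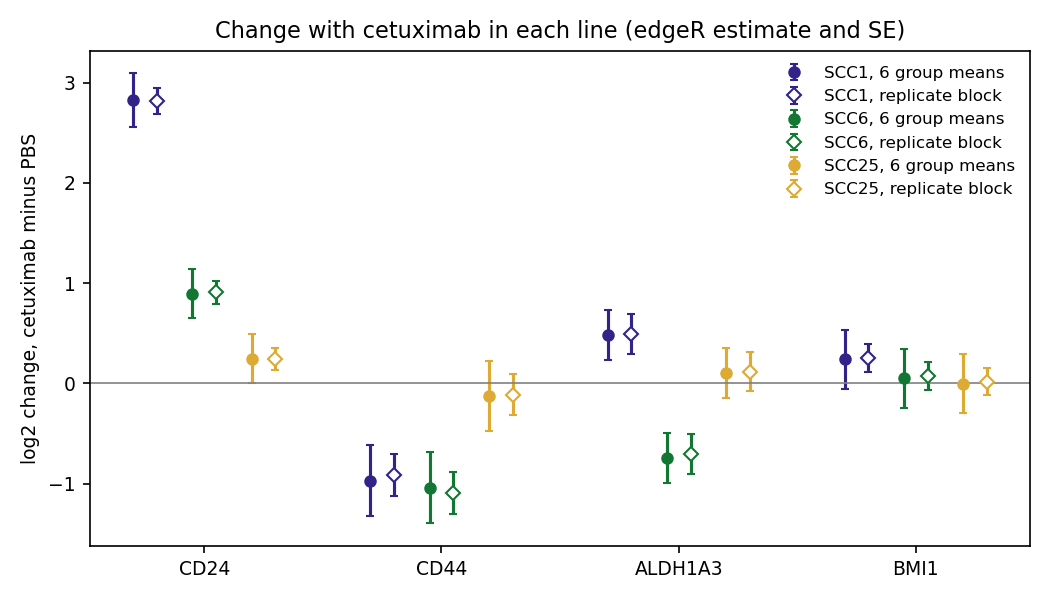
Log2 change with cetuximab (cetuximab minus PBS) of 4 members in each line, as edgeR estimates with bars of 1 SE, with filled circles for the fit with 6 group means and open diamonds for the fit with the replicate block. CD24 goes from 2.82 in SCC1 to 0.25 in SCC25, CD44 is near −1 in SCC1 and SCC6 and near 0 in SCC25, ALDH1A3 has opposite signs in SCC1 and SCC6, and BMI1 lies near 0.

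The low CD24 level of SCC1 was spread unevenly over its cells. With all deposited UMIs, 48 of 1263 and 73 of 1666 PBS cells held a CD24 UMI, and 111 of 961 and 170 of 1380 cetuximab cells did. Cells with 10 or more CD24 UMIs numbered 1 and 0 with PBS and 17 and 12 with cetuximab. The highest count in 1 cell was 12 and 6 with PBS against 97 and 52 with cetuximab. The rise thus included both more cells with any CD24 transcript and a tail of cells with many, and the median SCC1 cell held none in any sample.

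The 10 cells with most CD24 UMIs carried 53.1% and 35.8% of them in the PBS samples and 51.6% and 44.7% in the cetuximab samples. Without these cells, an alternative chosen after the data had been seen, CD24 stood at 0.612 and 0.767 CPM with PBS and at 4.83 and 4.64 CPM with cetuximab. The fold between the group means was 7.33 with all cells and 6.87 without them.

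Free or mixed RNA from the other lines was looked at through genes that are high in SCC6 or SCC25 and at most 2 CPM in SCC1 PBS, with the treated SCC1 samples left out of the choice. The sum of the 6 genes that mark SCC6 stood in the SCC1 samples at 0.0351% and 0.0630% of its SCC6 PBS level with PBS and at 0.0318% and 0.0627% with cetuximab. CD24 stood at 0.396% and 0.363% of its SCC6 PBS level with PBS and at 3.01% and 2.55% with cetuximab. For the 10 genes that mark SCC25 the sum stood at 0.214% and 0.241% with PBS and at 0.197% and 0.228% with cetuximab, beside 0.220% and 0.201%, then 1.67% and 1.41%, for CD24. The sums of the marking genes overlapped between the PBS and cetuximab samples of SCC1, while the CD24 levels did not. With PBS the CD24 level of SCC1, as a share of the SCC25 level, was close to that of the genes marking SCC25. As a share of the SCC6 level, CD24 was above the genes marking SCC6. Both sets were limited to 2 CPM per gene in SCC1 PBS, so their PBS shares were held low by the choice. In treated SCC1 cells the median sum of the marking genes was 0 CPM with 10 or more CD24 UMIs, and equally with 1 to 9 or 0. This median therefore does not tell these cells apart. The highest SCC6 sums in a cell with 10 or more (17 and 12 cells) were 34.2 and 271 CPM. With 0 (850 and 1210 cells) they were 304 and 484 CPM. For the SCC25 sums they were 54.0 and 44.4 CPM, against 81.2 and 109 CPM. A maximum over more cells tends to be higher, so these values do not tell the classes apart either. Of all SCC1 cells, 1, in PBS replicate 2, held over 20% of the level of another line, and without it the log2 ratio of the group means stayed at 2.87.

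**Figure D3:**
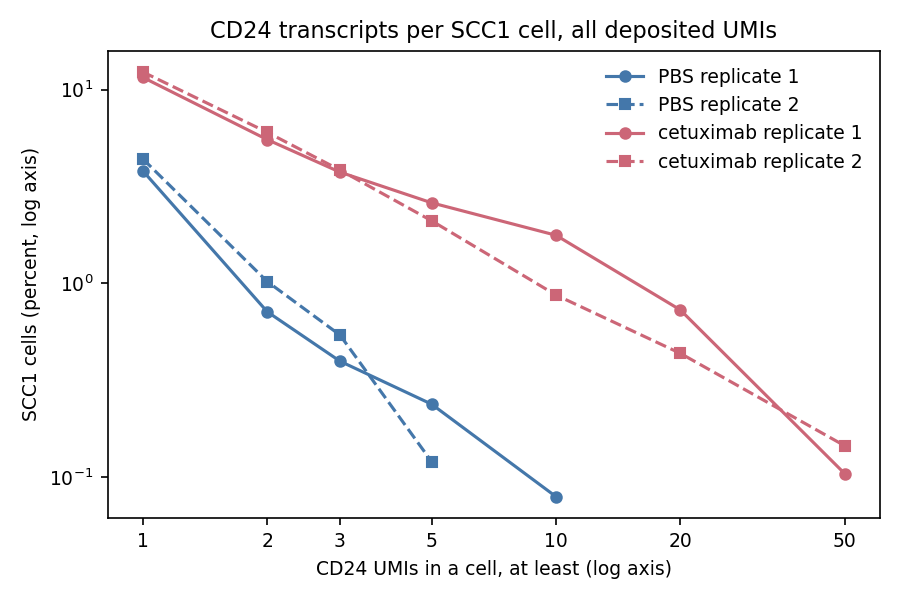
Share of SCC1 cells (percent, logarithmic axis) that hold at least the number of CD24 UMIs on the x axis (logarithmic), per sample, with PBS in blue, cetuximab in red, replicate 1 with solid and replicate 2 with dashed lines. The treated samples lie above both PBS samples at every number of UMIs, and no PBS cell held over 12.

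To set lines and treatments side by side at equal depth, each cell was thinned at random to 15000 UMIs. Cells below that depth, 851 in all, were left out and 23063 were kept. A cell with 1 or more UMIs of a gene was counted as positive. Genes that squamous cells should lack (PTPRC, CD3E, ALB and HBB) had a UMI in no more than 0.183% of cells in each sample at this depth, and intervals given for single samples cover counting error only.

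CD24-positive cells made up 1.89% (95% Clopper-Pearson interval 1.20 to 2.83) and 1.46% (0.940 to 2.17) of the SCC1 PBS samples, and 6.08% (4.63 to 7.80) and 6.01% (4.80 to 7.42) of the SCC1 cetuximab samples. In SCC6 they made up 93.3% and 91.1% with PBS and 99.4% and 97.7% with cetuximab, and in SCC25 99.5% and 99.0%, then 99.8% and 99.5%. SCC1 was thus almost free of CD24-positive cells where the other 2 lines were almost wholly positive. Before thinning, the SCC1 shares were 3.80% and 4.38% with PBS and 11.6% and 12.3% with cetuximab. In 6 of 6 pairs the cetuximab sample had the larger share, by a mean of 3.70 percentage points over the lines (exact two-sided permutation test within lines, p = 0.00926, the smallest it allows). Positive thinned cells of SCC1 held a mean of 1.35 and 1.21 CD24 UMIs with PBS and of 2.53 and 2.40 with cetuximab, a difference that was not tested.

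CD44-positive cells made up 45.6% and 62.1% of SCC1 PBS cells and 31.9% and 37.6% of SCC1 cetuximab cells. SCC6 had 84.0% and 83.8%, then 52.9% and 73.5%, and SCC25 had 87.8% and 94.1%, then 89.4% and 93.1%. All 4 treated samples of SCC1 and SCC6 lay below the controls of their line, and the SCC25 groups overlapped. The mean difference over the lines was −13.2 points (exact permutation test, p = 0.0370), with 1 of 6 pairs higher. It did not pass with the replicate pairing (exact sign-flip test over 6 pairs, p = 0.0938), without thinning (−9.47 points, p = 0.111) or without either SCC6 PBS replicate (p = 0.102 each), cetuximab replicate 1 or 2 of SCC1 (p = 0.0833 each) or PBS replicate 2 of SCC1 (p = 0.0556).

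ALDH1A3-positive cells made up 26.0% and 28.6% of SCC1 PBS cells and 35.5% and 36.2% of SCC1 cetuximab cells, 87.1% and 78.6%, then 72.3% and 76.0%, in SCC6, and 57.4% and 63.4%, then 62.8% and 68.3%, in SCC25. BMI1-positive cells were a minority everywhere, between 14.9% (SCC6 PBS replicate 2) and 27.3% (SCC25 cetuximab replicate 1). Cetuximab samples had the larger share in 6 of 6 pairs, by a mean of 3.73 points (exact permutation test within lines, p = 0.157; exact sign-flip test over the 6 pairs, p = 0.03125, the smallest it allows). For ALDH1A3 the mean difference was 1.67 points (exact permutation test, p = 0.611).

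ALDH1A1-positive cells reached 4.04% (3.30 to 4.88) in SCC25 PBS replicate 2 and 1.51% (1.02 to 2.14) in SCC25 cetuximab replicate 2. In the remaining 10 samples they made up at most 0.411%, and in SCC1 and SCC6 at most 0.183%, where the 4 genes that should be absent reached at most 0.0742%. PROM1-positive cells made up 0.200% (0.0649 to 0.466) in SCC25 PBS replicate 2 and less elsewhere, and this interval includes the highest share of a gene that should be absent. None of the 6 shares passed a threshold of 0.05 for its difference between cetuximab and PBS after Benjamini-Hochberg adjustment over the 6.

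Since CD44 and CD24 are usually read together, cells were sorted by both transcripts. In SCC1 PBS, 53.0% ± 11.7 (SD, n = 2) of the cells held CD44 alone, 0.808% both, 0.870% CD24 alone and 45.3% neither. In SCC6 PBS the same classes made up 6.48% ± 1.11, 77.4%, 14.8% and 1.33%, and in SCC25 PBS 0.705%, 90.3%, 9.01% and 0.0229%. Nearly all SCC1 PBS cells thus held CD44 alone or neither, the former being larger in replicate 2 (61.3% against 37.3%) and the latter in replicate 1 (53.3% against 44.8%), while CD44 alone made up under 10% of the PBS cells of the other lines.

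With cetuximab, cells with CD44 alone went from 44.8% and 61.3% to 29.3% and 35.0% in SCC1, from 5.69% and 7.27% to 0.424% and 1.89% in SCC6, and from 0.411% and 0.999% to 0.208% and 0.452% in SCC25. The treated samples lay below both controls in SCC1 and SCC6 and overlapped them in SCC25, and 0 of 6 pairs were higher with cetuximab. Over the lines this class differed by a mean of −8.85 points (exact permutation test within lines, p = 0.0185; sign-flip test over 6 pairs, exact p = 0.03125). With positivity at 2 UMIs it was −8.65 points and without thinning −7.30 points (exact permutation p = 0.00926 for both). The other classes were tested in the same way, and no p-value for a class was adjusted for the number of tests. In SCC1 the cells with neither transcript made up 61.8% with cetuximab against 45.3% with PBS. In SCC6 those with both made up 62.0% ± 13.6 against 77.4%, and those with CD24 alone 36.5% ± 14.8 against 14.8%. Over the 3 lines, the gain in cells with CD24 alone was 8.02 points (exact permutation test, p = 0.0833).

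**Figure D4:**
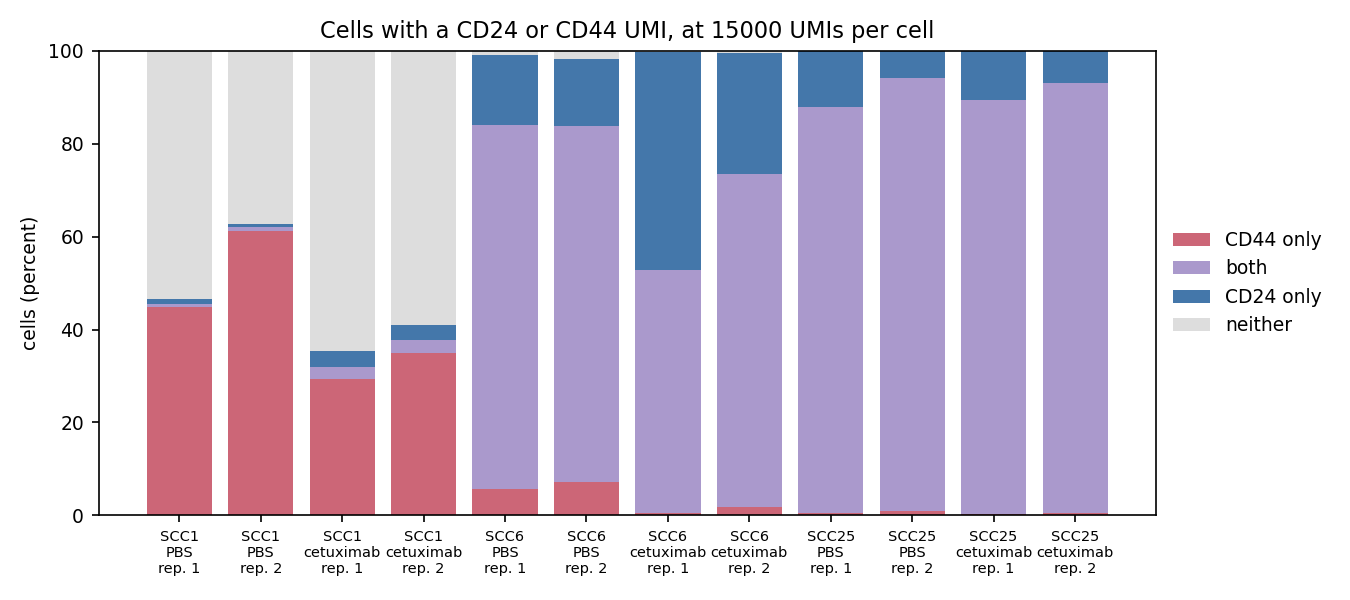
Cells with a CD44 transcript alone, both transcripts, a CD24 transcript alone or neither, as stacked percentages of the cells of each of the 12 samples thinned to 15000 UMIs. SCC1 consists almost wholly of cells with CD44 alone or neither, SCC25 of cells with both or CD24 alone, and the share with CD24 alone in SCC6 is larger in the 2 cetuximab samples than in the 2 PBS samples.

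How often members occurred together within samples was set against what their separate shares predict. With over 90% of SCC6 and SCC25 cells positive for CD24, ratios with CD24 are held near 1 there, so only SCC1 can show a departure. The observed number of cells positive for CD24 and CD44, divided by the number expected from the 2 shares, was 1.32 and 1.15 in the SCC1 cetuximab samples. In SCC1 PBS it was 0.954 and 0.873. The mean difference over the lines was 0.106 (exact permutation test, p = 0.306). That difference rests on SCC1, whose samples are too few for the test to pass alone, so the test cannot decide the question. The ratio was 0.971 to 1.06 for CD44 with ALDH1A3 and 0.982 to 1.08 for ALDH1A3 with BMI1 (12 samples each). In the SCC1 cetuximab samples it was 1.48 and 1.43 for CD24 with ALDH1A3 and 1.42 and 0.893 for CD24 with BMI1, while the SCC1 PBS samples had under 10 cells expected and gave no ratio. Over the cells of a sample, which share their library, Pearson's r of log2(UMIs + 1) between CD24 and CD44 lay between −0.119 and 0.0629. These values are close to 0, were not tested and are not read as a relation.

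What else distinguishes cells with a member from cells without it was described by the summed UMIs of 4 gene lists at the same thinned depth. In the 8 samples with at least 20 CD24-positive and 20 CD24-negative cells, CD24-positive cells held fewer UMIs of 15 cell-cycle genes in each. The means per cell were 19.0 against 24.7 and 12.7 against 28.4 in SCC1 PBS, and 2.53 against 8.82 and 12.6 against 16.8 in SCC1 cetuximab. They were 25.01 against 33.7 and 41.3 against 49.6 in SCC6 PBS, 28.4 against 46.8 in SCC6 cetuximab replicate 2 and 21.6 against 32.2 in SCC25 PBS replicate 2. The mean log2 ratio was −0.71, from −1.76 to −0.27, with 0 of 8 samples higher (exact two-sided sign-flip test, p = 0.00781, the smallest it allows, and 0.0703 after adjustment over 16 tests). Without thinning, as a share of all UMIs of a cell, the ratio was −0.15 in the 6 samples with enough cells, with 1 higher (exact p = 0.281). A cell is CD24-negative in SCC6 and SCC25 when it belongs to the few percent with least CD24.

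ALDH1A3-positive cells held more UMIs of squamous differentiation genes in 10 of 12 samples, by a mean of 0.15 on the log2 scale (exact sign-flip test, p = 0.00879, adjusted 0.0703), and the ratio was 0.01 without thinning (exact p = 0.799). BMI1-positive cells held more cell-cycle UMIs in 9 of 12 samples, by 0.06 (exact sign-flip test, p = 0.0156, adjusted 0.0833), a small difference. Without thinning it was 0.32, in 12 of 12 samples (exact sign-flip test, p = 0.000488, adjusted 0.00781). A cell with more UMIs is then more often counted as positive, so positive and negative cells may differ in depth. None of the 16 comparisons of CD24, CD44, ALDH1A3 and BMI1 with cell-cycle, interferon, squamous differentiation and mesenchymal lists passed after adjustment at equal depth. The cell-cycle list itself was lower with cetuximab, with a negative estimate for 15 of 15 genes in each line and median log2 changes of −1.13 in SCC1, −0.48 in SCC6 and −0.46 in SCC25, beside medians of 0.0012, 0 and −0.0068 over all genes. None of its genes passed within a line, and with the block 15 did in SCC1, 6 in SCC6 and 0 in SCC25. Its part in the CD24 differences between treatments was not tested.

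**Figure D5:**
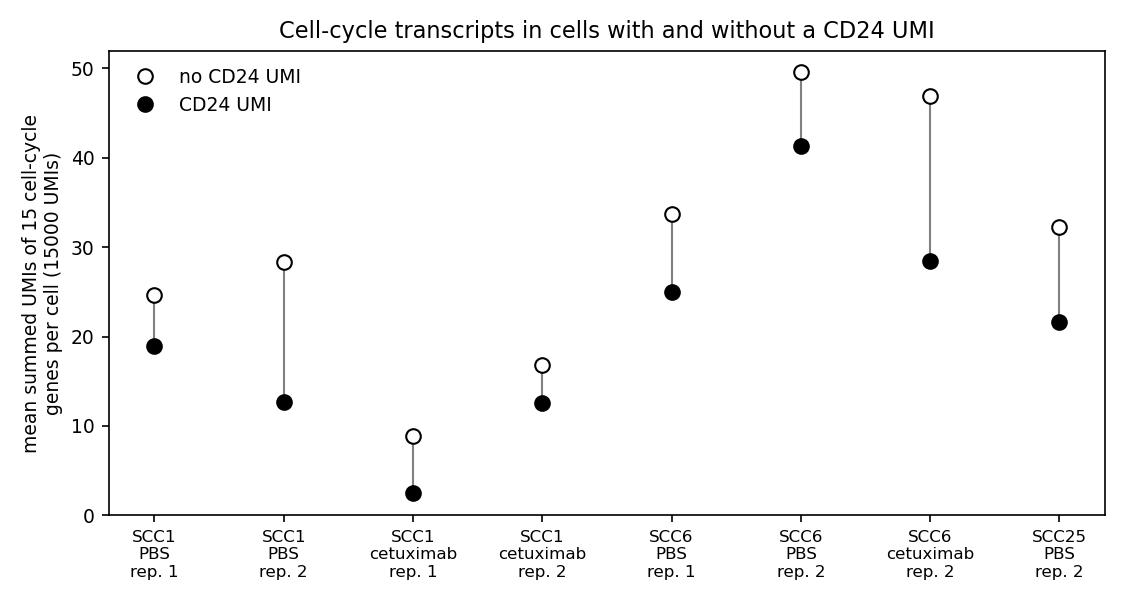
Mean summed UMIs of 15 cell-cycle genes per cell, at 15000 UMIs per cell, in cells with (filled) and without (open) a CD24 UMI, for the 8 samples with at least 20 cells of each kind. The filled point lies below the open one in all 8, and the largest gap as a ratio is that of SCC1 cetuximab replicate 1, 2.53 against 8.82.

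Genes whose level followed that of a member were ranked by Pearson's r of log2(CPM + 1) over the 12 samples, among 7583 genes with a mean of at least 10 CPM. The 12 samples form 3 lines, so a high r mainly means the same order of the lines. For CD24 the first were TLE1 (r = 0.983), a transcriptional co-repressor, WNT7B (0.980), a Wnt ligand, TACC1, SECISBP2 and PRSS23 (0.978 to 0.976). For CD44 they were PHB2 (0.960), a mitochondrial prohibitin, UXT, MRPS34, PLEKHF1 and EIF5AL1 (0.956 to 0.947). For ALDH1A3 they were PTGES (0.971), which makes prostaglandin E2, FAM129B, DAAM1, TMEM205 and PGLS (0.968 to 0.963). For BMI1 they were BET1L, DYNC1H1 (0.960 each), WDFY1, RERE and TANC1 (0.955 to 0.944).

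Cell by cell, the companions of CD24 depended on the line. In SCC6, among 2485 genes, the mean r over the 4 samples was highest for SOX4, a transcription factor gene (0.421, from 0.377 to 0.464 among samples). Also among the first 5 were FN1, which encodes the matrix protein fibronectin (0.382), the growth factor gene MDK (0.351) and IGFBP3 (0.303), and HMGA1 was lowest (−0.331). In SCC25 the highest were CAV1, HEG1, PDLIM1, ADM and SERINC2 (0.222 to 0.211 among 2606 genes). In SCC1 the highest were the keratin gene KRT15 (0.151), the cell-cycle inhibitor gene CDKN2B (0.124), SOX4 (0.118), WNT6 (0.107) and KRT13 (0.103) among 3019 genes. SOX4 was the one gene among the first 5 of both SCC1 and SCC6. The SCC1 values are weak and rest on few positive cells, and cells of a sample share their library, so these are descriptions without a test.

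The genes around CD44 were 20 that make, cut or bind hyaluronan, shed or splice CD44 or link it to the cytoskeleton, of which 17 were tested. In SCC6, 2 rose and 1 fell with cetuximab, where edgeR called 3.81% of all genes (3.67% across lines). MMP14, a membrane protease that cleaves CD44, went from 22.7 and 30.4 CPM to 135 and 128 CPM (2.09 ± 0.19 on the log2 scale, edgeR FDR 0.00214), and CEMIP2, a cell-surface hyaluronan-binding protein, from 10.0 and 8.05 to 47.5 and 32.9 CPM (1.92 ± 0.34, FDR 0.0177). HYAL1, a hyaluronidase, was rare there (47 UMIs in both PBS samples and 12 in both cetuximab samples) and fell by 1.88 ± 0.42 (FDR 0.0396). None of the 17 was called in SCC1 or SCC25, where MMP14 changed by 0.76 (FDR 0.219) and 0.63 (FDR 0.590), and across lines both CEMIP2 (1.36 ± 0.22, FDR 0.0106) and MMP14 (1.15 ± 0.22, FDR 0.0171) rose. The list had median log2 changes of 0.16 (SCC1), −0.37 (SCC6) and 0.17 (SCC25), beside the medians over all genes of 0.0012, 0 and −0.0068. With the block, 3 rose and 1 fell in SCC1, 3 rose and 6 fell in SCC6, and 1 rose in SCC25, and the background for the counts with the block, here and for the lists that follow, was 4.45%, 20.1% and 0.978% of all genes called in SCC1, SCC6 and SCC25. Between untreated lines 3 were higher and 2 lower in SCC6 than in SCC1, 9 higher and 2 lower in SCC25 than in SCC1, and 7 higher and 4 lower in SCC25 than in SCC6, beside 40.2%, 40.8% and 40.9% of all genes called in these comparisons.

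Of 3 genes for binding partners of CD24, SIGLEC10 and SELP did not pass the low-count filter, and L1CAM, a neural adhesion molecule, did. L1CAM stood at 21.5 and 22.9 CPM in SCC1 PBS, where CD24 was lowest, and at 1.99 and 2.06 CPM in SCC6 PBS and 2.20 and 1.80 CPM in SCC25 PBS (log2 differences from SCC1 of −3.12 ± 0.30 and −3.29 ± 0.30, edgeR FDR 2.7e-05 and 2.6e-05). With cetuximab it stood at 36.2 and 47.2 CPM in SCC1, 4.35 and 6.58 CPM in SCC6 and 5.27 and 7.67 CPM in SCC25, above both controls in each line. It rose across lines by 1.24 ± 0.18 (FDR 0.00749) and in SCC6 by 1.20 ± 0.28 (FDR 0.0441), while SCC1 (0.86, FDR 0.370) and SCC25 (1.67, FDR 0.266) did not pass, SCC25 passing with the block (FDR 0.0202).

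Of 17 further aldehyde dehydrogenase genes, 16 were tested and 0 were called with cetuximab in any line or across lines without the block. The smallest p in SCC6 belonged to ALDH3B1 (−0.97, edgeR FDR 0.124) and ALDH3A1 (−2.55, FDR 0.241). With the block, 1 rose and 5 fell in SCC6 and 1 rose and 1 fell in SCC25. Medians were −0.10, −0.33 and −0.26 in SCC1, SCC6 and SCC25. Between untreated lines ALDH2, the mitochondrial enzyme that clears acetaldehyde, stood at 15.7 and 27.4 CPM in SCC1, 3.04 and 5.02 CPM in SCC6 and 44.7 and 128 CPM in SCC25. Each of the 3 differences passed (edgeR FDR 0.0115, 0.00929 and 0.000362 for SCC6 minus SCC1, SCC25 minus SCC1 and SCC25 minus SCC6). Of the 16 genes, 4, 6 and 4 were called in these comparisons, in the same order. Beside them stood 40.2%, 40.8% and 40.9% of all genes.

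Of 18 genes of retinoic acid uptake, synthesis and response, into which the products of the ALDH1A enzymes feed, 16 were tested. With cetuximab 1 was called, DHRS9 in SCC6, a retinol dehydrogenase gene with 87 UMIs in both PBS samples and 7 in both cetuximab samples (−3.53 ± 0.59, edgeR FDR 0.0144). Of all genes, 3.81% were called in SCC6. Between untreated lines the retinol receptor gene STRA6 stood at 0.320 and 0.120 CPM in SCC1 PBS, 21.9 and 21.2 CPM in SCC6 PBS and 0.494 and 0.838 CPM in SCC25 PBS. In all, 7 were higher and 2 lower in SCC6 than in SCC1, 10 higher and 1 lower in SCC25 than in SCC1, and 6 higher and 2 lower in SCC25 than in SCC6, where 40.2%, 40.8% and 40.9% of all genes were called. Medians with cetuximab were 0.16, −0.0073 and −0.03 in SCC1, SCC6 and SCC25, and with the block 1 fell in SCC1, 1 rose and 2 fell in SCC6 and 1 fell in SCC25.

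Of 22 genes of PRC1, in which BMI1 acts, and of its target locus, 21 were tested. With cetuximab 1 was called, CDKN2B across lines (1.76 ± 0.35 on the log2 scale, edgeR FDR 0.0200), where 3.67% of all genes were called. CDKN2B stood at 26.5 and 18.3 CPM in SCC1 PBS and 143 and 71.8 CPM in SCC1 cetuximab, and at 19.4 and 40.1 CPM, then 54.3 and 105 CPM, in SCC25, and it was at or under 1 UMI per sample in SCC6. CDKN2A, the best known gene silenced by BMI1, stood at 133 and 113 CPM in SCC1 PBS, had no UMI in the 4 SCC6 samples and stood at 0.432 and 0.392 CPM in SCC25 PBS. Medians of the list with cetuximab were 0.10, 0.04 and 0.15 in SCC1, SCC6 and SCC25. With the block, 1 rose in SCC1, 1 rose and 2 fell in SCC6 and 1 rose in SCC25.

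Of 20 other markers of stem-like cells, 17 were tested. In SCC6, SOX2, a pluripotency factor, went from 1.78 and 2.93 CPM to 0.447 and 0.189 CPM (−3.12 ± 0.64, edgeR FDR 0.0288) and the growth regulator MYC from 402 and 217 to 67.1 and 139 CPM (−1.83 ± 0.42, FDR 0.0407). Of all genes, 3.81% were called in SCC6 and 3.67% across lines. LGR5, a Wnt pathway receptor of intestinal stem cells, was called higher across lines (FDR 0.0171), but it had 0, 0 and 5 UMIs in the PBS groups and 3, 28 and 39 in the cetuximab groups of SCC1, SCC6 and SCC25, too few for a fold to be given. None was called in SCC1 or SCC25, where SOX2 stood at 20.1 and 29.6 CPM with PBS and 7.30 and 14.5 CPM with cetuximab in SCC25. The medians with cetuximab were −0.23, −0.55 and −0.11, and with the block 1 rose and 2 fell in SCC1, 3 rose and 6 fell in SCC6 and 0 passed in SCC25, beside 4.45%, 20.1% and 0.978% of all genes in the same fit. In SCC1 without the block, CD24 was called while the other 4 members tested and these 17 markers were not. Only 0.0168% of all genes (3 of 17897) were called there. With the block CD44 was called in SCC1 as well.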

How the data were processed

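The members and gene lists were chosen with earlier results of these data known. Per the labels, libraries were made with the 10x Genomics Chromium 3′ kit v2, and the submitters' processing notes name Cell Ranger and GRCh38, with versions not given in the sources used here. The deposited values are raw UMI counts per gene and cell, made by the authors with Cell Ranger. All 23914 deposited cells were kept and no doublet caller was run. UMIs were summed per sample, since cells are not replicates. Sums were tested with edgeR 4.0.16 (R 4.3.3): TMM factors, filterByExpr, quasi-likelihood F-tests in 1 fit of 6 group means, a fit with line and treatment, and an interaction test, two-sided, with Benjamini-Hochberg adjustment (FDR, threshold 0.05) over 17897 genes. Values are mean ± SD, n = 2, or log2 change ± SE. CPM, their folds and the thinned shares carry no TMM factors. In SCC6 these factors were 0.835 and 0.894 with PBS and 1.02 and 1.00 with cetuximab. The edgeR changes there therefore lie below those of the mean CPM. Same-numbered samples deviated together (r of deviations from group means 0.696 in SCC1, 0.649 in SCC6 and 0.724 in SCC25, over 7583 genes), so the numbers were taken to pair the samples and the blocked value is given where it changes a call. Per-cell shares used cells thinned to 15000 UMIs and exact tests over samples. Beside the members, the text names from each list the genes called in a comparison, at most 5 by smallest p, or the 2 smallest where none was, and the 5 genes most like a member. A gene that this rule selects is not reported here. CD68 was named after its values were seen. Alternatives were DESeq2 1.42.0, its size factors in edgeR, no filter, the block, cell filters, other thinning and leaving out each sample. Scripts were tested on simulated data. At these depths replicate spread, not counting, limits all but rare transcripts.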

Additional observations from a re-analysis of the deposited data

Results flagged for a closer look

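The change of CD24 with cetuximab differed between lines in the fit with the replicate block (interaction of line and treatment, edgeR FDR 0.00875). The log2 changes there were largest in SCC1 and smallest in SCC25. The same test without the block had an FDR of 0.189.

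ALDH1A3 was higher with cetuximab in both pairs of SCC1 and of SCC25 and lower in both pairs of SCC6. The test of this difference, the interaction of line and treatment, did not pass (edgeR FDR 0.540).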

How the results depend on the processing

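Over the 3 lines, edgeR called 1 change of a member with cetuximab. The count was 3 with no low-count filter, 2 with DESeq2, 5 with the replicate block, 0 with the 4 samples of each line alone and 0 to 2 when 1 sample was left out. Across lines it was 0, and 2 with no filter, 2 with DESeq2 and 1 with the block, while leaving out 1 sample did not move it. By the interaction it was 0, and 1 with no filter, 1 with DESeq2, 1 with the block and 0 to 1 when 1 sample was left out. Calls over all genes moved with the setting as well. In SCC1, SCC6 and SCC25 they numbered 3, 682 and 0 in the main fit and 243, 1233 and 128 with no filter. They were 274, 1671 and 101 with DESeq2, 797, 3589 and 175 with the block and 0, 265 and 0 with each line alone. In the order main, no filter, DESeq2 and block, they were 656, 1043, 1771 and 2073 across lines. By the interaction they were 0, 248, 276 and 230. Where leaving out a sample left 1 in a group, its spread was taken from the other groups. The interaction of CD24 passed without SCC6 PBS replicate 2 (edgeR FDR 0.0418), and so did ALDH1A3 in SCC6 (−1.05, FDR 0.0491). The 10 calls between untreated lines stayed within 1.5 times that count. Differences between cells with and without a member passed 0 times at equal depth and 6 times without thinning, where positivity depends on the depth of a cell. Sign changed, with none passing, for the small changes of BMI1 and ALDH1A3 and of CD44 in SCC25. With 1 sample left out, BMI1 ranged from −0.23 to 0.39 in SCC6 and −0.26 to 0.31 in SCC25, CD44 from −0.38 to 0.17 in SCC25, and ALDH1A3 from −0.086 to 0.32 in SCC25 and −0.17 to 0.12 across lines. BMI1 between untreated lines ranged from −0.11 to 0.51 (SCC6 minus SCC1) and −0.035 to 0.61 (SCC25 minus SCC6). BMI1 in SCC25 was 0.0030 with no filter and 0.018 with the block. The ALDH1A3 share difference was −0.646 points with positivity at 2 UMIs. Low counts limit PROM1, and ALDH1A1 in SCC1 and SCC6. In SCC25, ALDH1A1 differed widely between replicates 1 and 2 (13 and 299 UMIs with PBS, 4 and 91 with cetuximab). The changes of both genes with cetuximab were not given.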
